A study of Homo sapiens with 8 samples.

Results

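Kinesins are ATP-driven motors that move along microtubules or take them apart, and they were read out here as a family of 33 genes. The rows taken were the protein-coding genes whose name starts with KIF and a number or with KIFC, which gave 34 of the 16383 genes in the count table. One of these rows, KIF1BP, encodes a kinesin-binding protein and not a motor, so that 33 motors were left: 12 mitotic motors, 12 transport motors and 9 others. RNA came from MDA-MB-231, a triple-negative human breast cancer cell line, given 5 µM c-di-GMP, a bacterial cyclic dinucleotide that STING binds, for 24 h (4 libraries), or given PBS as vehicle for the same time (4 libraries). No genetic change of the line is given, and both groups were grown in DMEM with serum and antibiotics. Separate cultures are not stated for the libraries, and p-values measure only how these libraries vary, which may be technical. The question was which transcripts differ between treated and untreated cells.

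Most kinesins walk toward the plus ends of microtubules, while the kinesin-14 members, whose motor domain lies at the C-terminus, walk toward the minus ends, and the kinesin-13 members do not walk but remove tubulin from microtubule ends. The mitotic motors build the spindle, align the chromosomes and carry the proteins that drive cytokinesis, and their genes are transcribed mainly late in the cell cycle. The transport motors carry vesicles, organelles and ciliary components in interphase cells. In proliferating cells many genes of late cell cycle phases share a promoter element known as the CHR (cell cycle genes homology region), often placed downstream of CCAAT boxes.

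RefSeq promoters (GRCh38.p14, 250 bases before to 50 bases after the annotated start) were matched by symbol for 27 of the 33 motors, the others being KIF13B, KIFC2, KIF21B, KIF26B, KIF27 and KIFC3. The motors shown, 3 mitotic and 2 transport ones, are those with an entry that passed the test of c-di-GMP against vehicle in 7 libraries both without and with a correction for GC content, so that the promoters of motors that rose and of motors that fell can be set side by side. They are KIF18A (ENSG00000121621), read on the minus strand at chr11:28108107-28108406, KIF23 (ENSG00000137807), on the plus strand at chr15:69414099-69414398, and KIF4A (ENSG00000090889), on the plus strand at chrX:70289854-70290153. The transport motors are KIF1C (ENSG00000129250), on the plus strand at chr17:4997700-4997999, and KIF3C (ENSG00000084731), on the minus strand at chr2:25982448-25982747. Capitals mark matches to the CHR letters TTTGAA or TTCGAA and to CCAAT, each searched on both strands, so that a CCAAT box on the opposite strand reads ATTGG.
KIF18A: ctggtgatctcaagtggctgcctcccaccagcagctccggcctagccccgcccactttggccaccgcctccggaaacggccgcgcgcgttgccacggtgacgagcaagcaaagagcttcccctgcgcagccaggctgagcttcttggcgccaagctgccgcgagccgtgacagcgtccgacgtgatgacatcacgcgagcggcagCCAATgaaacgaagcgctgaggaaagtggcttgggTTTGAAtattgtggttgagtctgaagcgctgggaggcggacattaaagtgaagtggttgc
KIF23: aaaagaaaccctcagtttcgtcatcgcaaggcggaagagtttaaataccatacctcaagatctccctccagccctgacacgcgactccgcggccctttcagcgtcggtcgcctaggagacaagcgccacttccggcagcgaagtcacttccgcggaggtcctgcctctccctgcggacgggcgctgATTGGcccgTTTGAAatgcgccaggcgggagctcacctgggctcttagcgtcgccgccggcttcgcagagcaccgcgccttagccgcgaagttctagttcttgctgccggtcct
KIF4A: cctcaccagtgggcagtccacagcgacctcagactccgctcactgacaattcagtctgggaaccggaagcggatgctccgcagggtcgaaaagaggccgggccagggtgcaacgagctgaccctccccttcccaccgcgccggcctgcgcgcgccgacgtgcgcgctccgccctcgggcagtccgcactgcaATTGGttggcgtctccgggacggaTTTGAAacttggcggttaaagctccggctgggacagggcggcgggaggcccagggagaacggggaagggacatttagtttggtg
KIF1C: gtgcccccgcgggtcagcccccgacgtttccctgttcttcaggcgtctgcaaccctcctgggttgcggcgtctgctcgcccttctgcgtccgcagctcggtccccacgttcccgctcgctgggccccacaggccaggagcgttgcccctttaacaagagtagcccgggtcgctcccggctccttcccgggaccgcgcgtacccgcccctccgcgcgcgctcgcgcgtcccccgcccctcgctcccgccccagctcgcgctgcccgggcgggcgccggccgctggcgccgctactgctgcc
KIF3C: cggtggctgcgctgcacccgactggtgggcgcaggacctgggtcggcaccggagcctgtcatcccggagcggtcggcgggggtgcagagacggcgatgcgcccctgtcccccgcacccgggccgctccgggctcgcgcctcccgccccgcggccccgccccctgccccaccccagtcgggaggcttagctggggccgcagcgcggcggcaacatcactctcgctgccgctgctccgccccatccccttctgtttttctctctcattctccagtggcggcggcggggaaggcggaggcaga

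In each of the 3 mitotic promoters a CCAAT box stood upstream of a CHR match, and the 2 transport promoters held neither. As these motors were picked by their calls, class and direction cannot be told apart in them. Among the other motors, by calls in the 7 libraries, KIF18B fell and held both motifs, and KIF2A rose and held neither. KIF22 and KIFC1 did not pass and held both. KIF11, KIF14, KIF20B and KIF5B rose and held both, KIF15 rose with a CHR match only, and KIF7 fell and held neither. The windows follow RefSeq starts, which can differ from the GENCODE starts of the counted genes. The KIF3C window lies wholly inside its GENCODE gene, which starts at 25982749. The KIF18A window spans its GENCODE start at 28108308, and the KIF23 window spans its GENCODE start at 69414246. The marked motifs of KIF18A and KIF23 lie downstream of those GENCODE starts, inside the counted genes. Bases 11 to 40 after the start occurred in a GENCODE transcript of the same gene for 16 of the 27 promoters. Over the family, 10 of 12 mitotic motors had a CHR match (83.3%), against 1 of 9 transport motors (11.1%), 1 of 6 others (16.7%) and 16.6% of all 27305 promoters of the table. The 11 matches of the mitotic motors lay between 55 bases before and 36 bases after the start, whereas the match of KIF5B, the transport motor that held one, began 140 bases before it. CCAAT occurred in 10 of 12 mitotic promoters (83.3%), 3 of 9 transport promoters (33.3%) and 1 of 6 others (16.7%), against 35.7% of all promoters. Both motifs together were found in 9 of the 12 mitotic promoters, against 6.58% of all promoters. KIF20A, a cytokinesis motor, held 2 CCAAT boxes and no CHR letters in this window, and KIF2C held neither. The GC box GGGCGG, searched on both strands, did not set the classes apart, at 91.7% of mitotic, 100% of transport and 100% of other motors, against 44.6% of all promoters. Base composition differed between the classes, with a median promoter GC content of 62.2% for mitotic, 74.0% for transport and 68.8% for other motors, against 58.3% for all promoters. No matches of different motifs shared bases in the motor promoters (0 pairs), and a match describes letters and not a binding site.

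**Figure D1:**
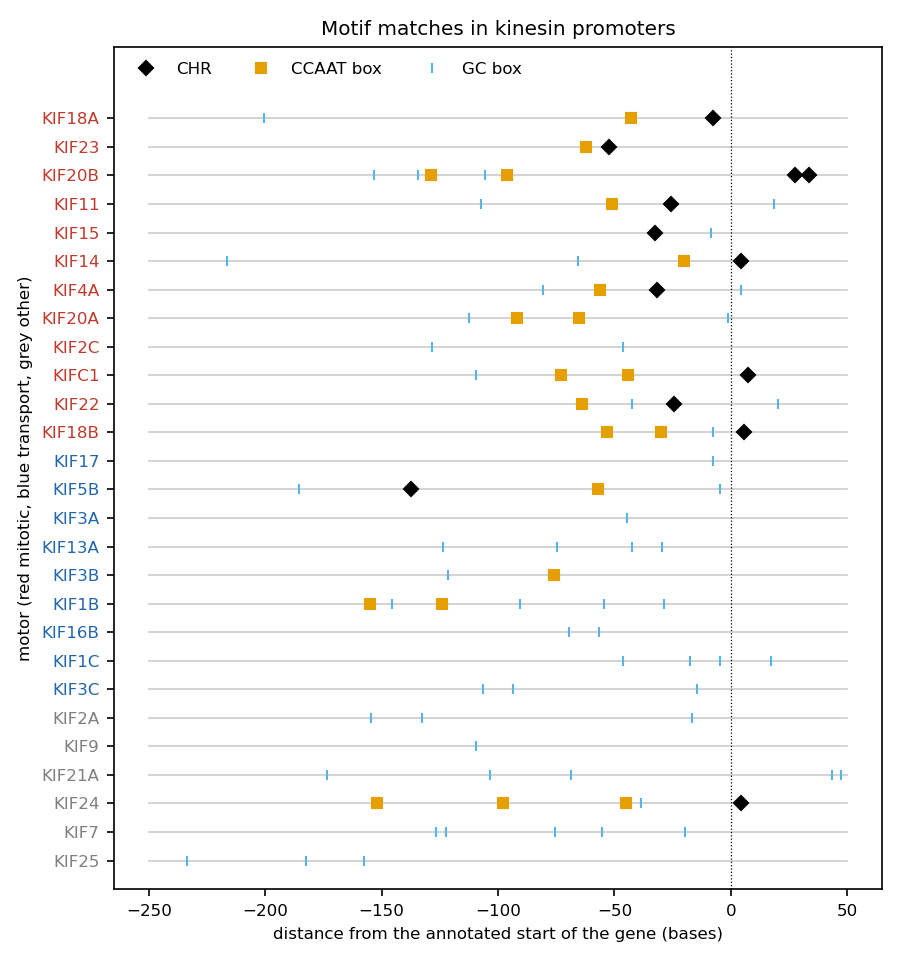
Motif matches in the 27 kinesin promoters, with the distance from the annotated start of the gene in bases on the horizontal axis and 1 motor per line. Black diamonds mark the CHR, orange squares the CCAAT box and blue ticks the GC box, and the diamonds gather near the start of 10 of the 12 mitotic motors.

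Depth ran from 16151360 to 18040010 counts per library, and 3 counts, taken as the floor, equalled 0.166 to 0.186 CPM (counts scaled to library size, with TMM factors in what follows), for counting error only. The label of the line fitted its markers, in that the 4 mesenchymal markers summed to 458 to 600 FPKM over the libraries, while the 4 of 6 luminal markers in the FPKM table summed to 9.20 to 30.7 FPKM, with ESR1 and PGR not listed there, and 1 of 4 markers of other cells was listed, at 1.03 to 2.25 FPKM. One vehicle library, replicate 3, did not resemble the rest, and the biological coefficient of variation was 36.3% with it and 4.52% without it. Each comparison is therefore given with all 8 libraries and with the 7 without it. In both, the log2 fold change is c-di-GMP over vehicle. CPM values below come from the scaling of the 7 libraries, and that of vehicle replicate 3 from the scaling of all 8.

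Levels between motors were compared as deposited FPKM, which is per gene length, for the 29 motors in that table (KIF17, KIF21B, KIF25 and KIF26B are in the count table only, with at most 92 counts per library). The deposited length joins all exons of a gene. It is 9600 bases for KIFC3, whose longest transcript has 3427, and 5877 bases by both measures for KIF5B. The order below therefore holds for this length only. KIF5B, the heavy chain of conventional kinesin, had the highest median over the 7 libraries, 70.9 FPKM, with a range of 62.2 to 73.2 FPKM. It was followed by the mitotic motors KIFC1 (a kinesin-14 that draws spindle poles together) at 55.4 FPKM, KIF2C (a kinesin-13 that works at kinetochores) at 50.1 FPKM, KIF11 (which pushes spindle poles apart) at 38.1 FPKM and KIF20A at 36.6 FPKM. The ranges of KIF5B and KIFC1 touched at 62.2 and 62.3 FPKM, while KIFC1, KIF2C and KIF11 were separate from each other. The vesicle carrier KIF1C came next at 32.0 FPKM. At the low end stood KIF16B, an endosome motor, at 1.64 FPKM, and KIF9, a motor of motile cilia, at 0.79 FPKM, each with a range apart from that of its neighbour. In all, 9 of the 28 neighbouring pairs in this order had ranges that did not overlap. With vehicle replicate 3 included the medians kept their order but for KIF20B and KIF3B, which changed places.

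With all 8 libraries no motor passed the test. By edgeR's quasi-likelihood test 0 of 33 motors had an adjusted p under 0.05, against a background of 0% of 15415 genes, and 3 motors had an unadjusted p under 0.05 (960 genes in all). These were KIF15, KIF18A and the minus-end motor KIFC3. Limma-voom called no motor, and DESeq2 called 1, KIF15, as higher with c-di-GMP (log2 fold change 0.26, DESeq2 adjusted p = 0.021), where 0.224% of the 11629 genes it gave an adjusted p were called higher. The median log2 fold change was 0.17 for the mitotic motors, -0.01 for the transport motors and -0.12 for the others, beside -0.05 for all genes. Scaling by library totals in place of TMM moved the median of all genes to 0.08 and those of the mitotic and transport motors to 0.33 and 0.09. The contrast between the classes was not kept by every alternative: limma-voom gave medians of 0.18 for the mitotic and 0.196 for the transport motors, with 9 of 12 motors above 0 in each class, and without vehicle 1 the transport median was 0.13.

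Without vehicle replicate 3, 9 motors rose and 7 fell with c-di-GMP, among 33 tested, against backgrounds of 13.5% of genes higher and 16.2% lower. Of the 12 mitotic motors 7 rose (KIF11, KIF14, KIF15, KIF18A, KIF20B, KIF23 and KIF4A), 1 fell (KIF18B) and 4 did not pass. Of the 12 transport motors 1 rose (KIF5B), 5 fell (KIF13B, KIF1C, KIF3C, KIFC2 and KIFC3) and 6 did not pass. Of the 9 others, KIF2A rose, KIF7 fell and 7 did not pass. The median log2 fold change was 0.16 for the mitotic motors and -0.09 for the transport motors, beside 0.0014 for all genes. DESeq2 and limma-voom called the same 16 motors. In bulk RNA, more cells in a phase that express a motor and more RNA per cell cannot be told apart.

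**Figure D2:**
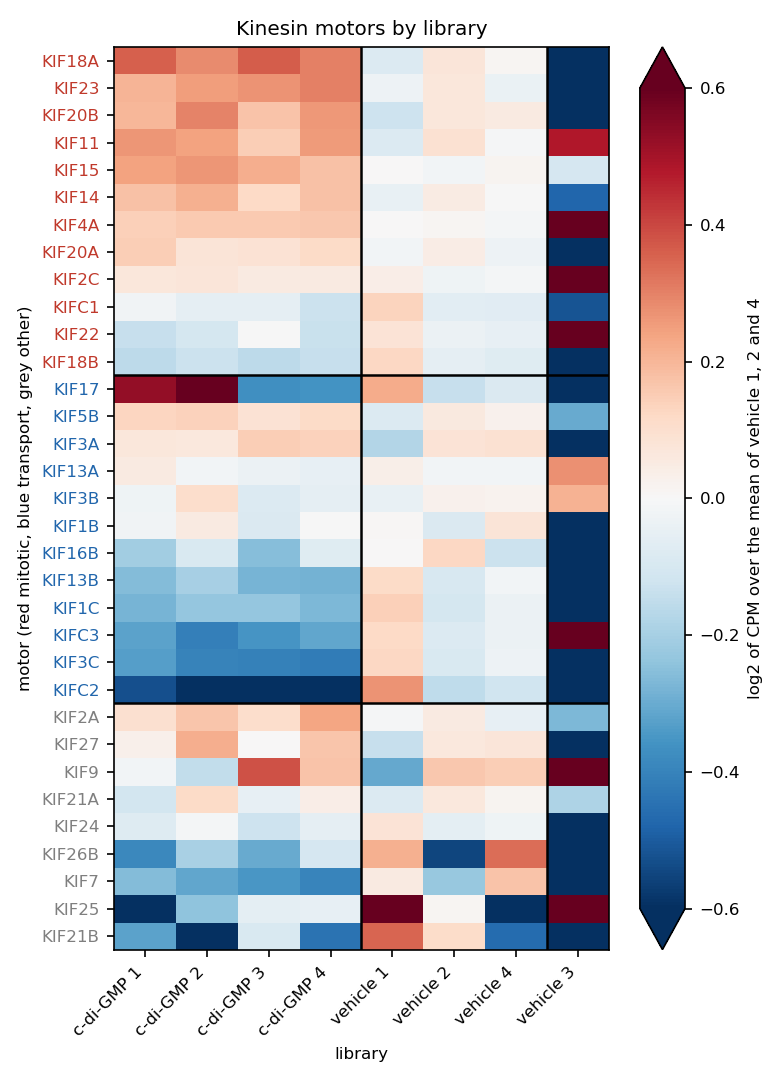
Each motor (rows, by class) in each library (columns, the c-di-GMP libraries first and vehicle replicate 3 at the far right), coloured by the log2 of its CPM over the mean of vehicle 1, 2 and 4, with colours capped at 0.6 in either direction. Most mitotic motors are red across the 4 c-di-GMP libraries and the lower transport motors are blue, while vehicle replicate 3 leaves the scale for many motors of every class.

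The class means showed the same split library by library. Averaged over the 12 mitotic motors, the log2 of CPM over the mean of vehicle 1, 2 and 4 lay between 0.11 and 0.13 in the 4 c-di-GMP libraries, against -0.02 to 0.02 in the 3 vehicle libraries. Averaged over the 12 transport motors it lay between -0.21 and -0.08 in the c-di-GMP libraries, against -0.04 to 0.06 in the vehicle libraries. Neither pair of ranges overlapped. With the GC correction the mitotic means still did not overlap, at 0.09 to 0.11 in the c-di-GMP libraries, against -0.03 to 0.02 in the vehicle libraries. The corrected transport means did overlap, at -0.13 to 0.0007 in the c-di-GMP libraries, against -0.02 to 0.03 in the vehicle libraries. KIF17, with only 17, 22, 10 and 10 counts in the c-di-GMP libraries, has the same weight in these means as any other motor. Its counts were highest in c-di-GMP 1 and 2, whose means lay nearest 0 among the c-di-GMP libraries both before and after the correction. Means without KIF17 were not taken, and its part in them was not tested. Neither the separation of the transport means before the correction nor their overlap after it can therefore be read as one of the class as a whole. The same uncorrected means in vehicle replicate 3 were -0.34 for the mitotic and -1.04 for the transport motors (scaling of all 8), both below every c-di-GMP library.

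GC content moved with these differences. The median GC content of the longest transcript was 44.4% for the mitotic motors, 51.1% for the transport motors, 51.8% for the others and 48.3% for all genes tested. Across the 33 motors the log2 fold change and the GC content had a Spearman correlation of -0.75, and across all genes one of -0.59, both given as descriptions over genes that share the same 7 libraries. The median log2 fold change of all genes fell by bins of GC content, with 0.13 between 35% and 40% and -0.28 between 60% and 65%. The comparison was therefore repeated with an offset that takes a GC trend out of each library, after which the correlation was -0.01 across all genes and -0.31 across the motors.

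**Figure D3:**
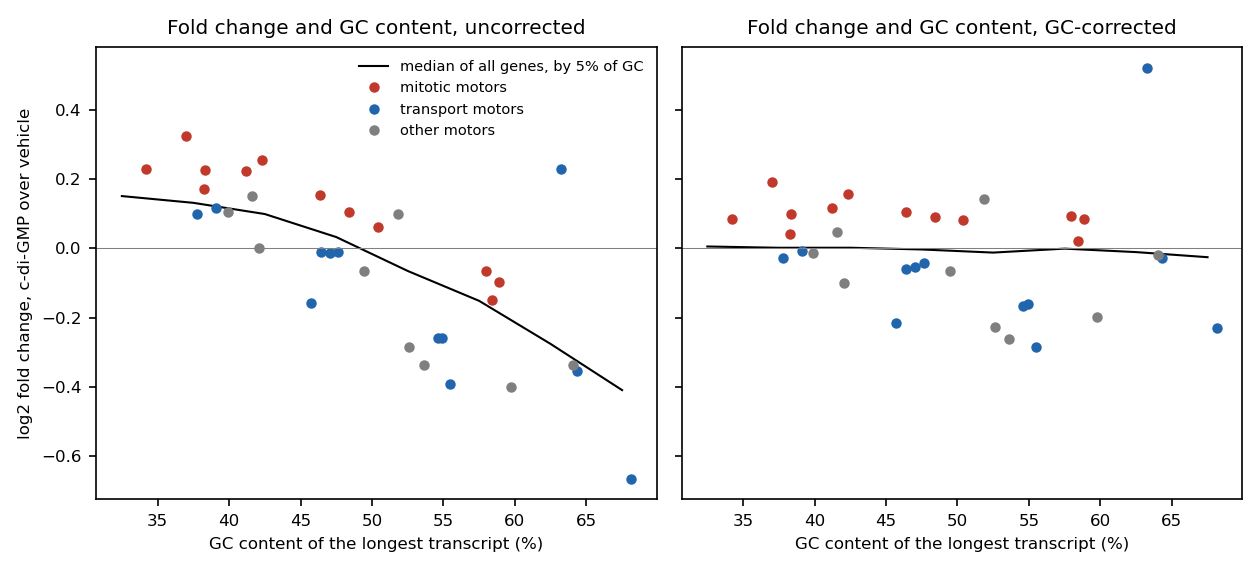
Log2 fold change of each motor (c-di-GMP over vehicle, 7 libraries) against the GC content of its longest transcript in percent, without the GC correction on the left and with it on the right. The black line is the median of all genes by 5% of GC content, and after the correction all 12 mitotic motors (red) lie above 0 and 11 of 12 transport motors (blue) below it.

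With the GC correction 3 of the 33 motors rose, all mitotic (KIF18A, KIF23 and KIF4A). Another 4 fell, all transport motors (KIF13B, KIF1C, KIF3C and KIFC2). The backgrounds were 8.58% of genes higher and 6.62% lower, so over the whole family the rises were near the background. All 12 mitotic motors had a log2 fold change above 0 (0.02 to 0.19, median 0.09), and 11 of 12 transport motors had one below 0 (median -0.06), beside a median of -0.0029 over all genes, of which 7716 of 15647 were above 0. The 12 of 12 held in each alternative run for this comparison. The exception among the transport motors was KIF17, a low-count motor of ciliary and dendritic transport, at 0.52 ± 0.34 (SE), which did not pass. After the GC correction the groups of KIF11, KIF14, KIF18B, KIF20B, KIF5B, KIFC3, KIF2A and KIF7 overlapped, which they had not done before it. Those of KIF22 overlapped before it and not after it. The share of all genes whose groups do not overlap was not computed, so non-overlap is given for motors only as a description. When a trend on gene length was taken out as well, 5 motors rose (KIF11 and KIF20B besides the other 3) and 3 fell (KIF13B no longer passing), against 7.66% of genes higher and 5.74% lower, and 8 of 12 transport motors were below 0, with a median of -0.02, while the mitotic median was 0.09.

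**Figure D4:**
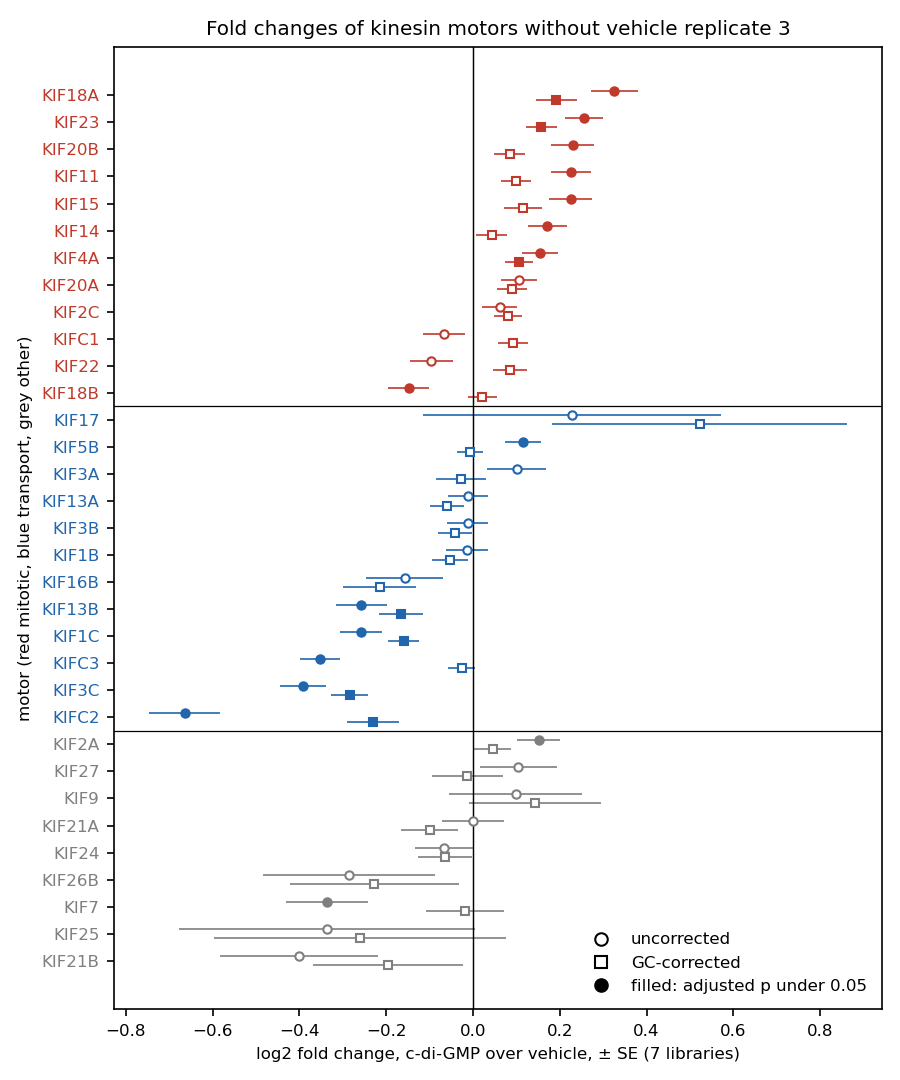
Log2 fold change of each of the 33 motors (c-di-GMP over vehicle, 7 libraries) with its standard error, as circles without and squares with the GC correction, filled where the edgeR adjusted p was under 0.05. Filled squares on the right are KIF18A, KIF23 and KIF4A, and on the left KIF13B, KIF1C, KIF3C and KIFC2.

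Among the motors that act on kinetochores and chromosomes, KIF18A, a kinesin-8 that limits chromosome oscillation at the metaphase plate, had 59.8, 56.8, 60.1 and 57.5 CPM in the c-di-GMP libraries, against 44.1, 49.0 and 47.0 CPM in vehicle 1, 2 and 4 and 27.0 CPM in vehicle 3. Every c-di-GMP library was above every vehicle library, vehicle 3 included. The log2 fold change was 0.33 ± 0.05 (SE), or 1.25-fold (edgeR adjusted p = 8.41e-05), and 0.19 ± 0.05 with the GC correction (edgeR adjusted p = 0.00602). KIF4A, a chromokinesin that also shapes the anaphase midzone, had 137, 139, 139 and 139 CPM with c-di-GMP, against 124, 126 and 123 CPM with vehicle and 185 CPM in vehicle 3. The groups were apart without vehicle 3, which lay above all other libraries on this scaling. The KIF4A count of vehicle 3, 2073, was below the 2151 to 2455 counts of the other libraries. KIF4A rose by 0.15 (edgeR adjusted p = 0.00593) and by 0.11 with the GC correction (edgeR adjusted p = 0.0276), a call lost without c-di-GMP 1, 3 or 4 or vehicle 4 (edgeR adjusted p = 0.058 to 0.119). Including vehicle 3, it had -0.04, which did not pass. Its reads may be shared with those of its near-identical copy KIF4B, which was not analysed here.

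KIF18B, the kinesin-8 that acts on astral microtubules, moved the other way from KIF18A before the GC correction. It had 126, 128, 126 and 127 CPM with c-di-GMP, against 153, 135 and 133 CPM with vehicle and 87.3 CPM in vehicle 3. The c-di-GMP libraries lay below vehicle 1, 2 and 4 and above vehicle 3. It fell by 0.15 on the log2 scale (edgeR adjusted p = 0.0199), a call lost without c-di-GMP 3 (edgeR adjusted p = 0.0527) or without vehicle 1 (log2 fold change -0.08, edgeR adjusted p = 0.127). With the GC correction its log2 fold change was 0.02, and the GC content of its transcript was 58.4%, against 37.0% for KIF18A. The kinetochore depolymerase KIF2C and the chromokinesin KIF22 did not pass, with log2 fold changes of 0.06 and -0.10, and 0.08 and 0.09 with the GC correction.

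Of the motors that hold the spindle bipolar, KIF11 had 213, 209, 196 and 211 CPM with c-di-GMP, against 167, 189 and 176 CPM with vehicle and 233 CPM in vehicle 3. Without vehicle 3, whose KIF11 count of 2606 was below the 2941 to 3713 of the other libraries, the groups did not overlap. The log2 fold change was 0.23 ± 0.05, or 1.17-fold (edgeR adjusted p = 0.000635). With the GC correction it was 0.10 and did not pass (edgeR adjusted p = 0.0579), although it passed without c-di-GMP 3 or without vehicle 2. KIF15, which can stand in for KIF11 in spindle assembly, had 65.9, 67.2, 64.9 and 63.2 CPM with c-di-GMP, against 55.9, 55.2 and 56.5 CPM with vehicle and 49.0 CPM in vehicle 3. It is one of the motors whose groups stayed apart with all 8 libraries. It rose by 0.22 (edgeR adjusted p = 0.00132), with 0.12 under the GC correction (edgeR adjusted p = 0.0775). KIFC1, their minus-end counterpart, had a log2 fold change of -0.07 without and 0.09 with the GC correction, neither past the threshold, although the second passed without vehicle 1 (0.12, edgeR adjusted p = 0.0368).

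The cytokinesis motors were led by KIF23, the kinesin of centralspindlin. It had 149, 154, 156 and 159 CPM with c-di-GMP, against 127, 136 and 126 CPM with vehicle and 62.6 CPM in vehicle 3. No vehicle library reached a c-di-GMP library. KIF23 rose by 0.26 ± 0.04 (SE), or 1.19-fold (edgeR adjusted p = 0.000115), and by 0.16 ± 0.04 with the GC correction (edgeR adjusted p = 0.00292). KIF20A, which brings Aurora B to the central spindle, had 161, 154, 155 and 158 CPM with c-di-GMP, against 144, 150 and 143 CPM with vehicle and 22.4 CPM in vehicle 3. The groups did not overlap, but the difference was small. Its log2 fold change of 0.11 did not pass (edgeR adjusted p = 0.0585) but did without vehicle 2 (0.13, edgeR adjusted p = 0.0368). With the GC correction it was 0.09 (edgeR adjusted p = 0.0758), and it passed without c-di-GMP 2 or without vehicle 2. With all 8 libraries it was 0.45 ± 0.49.

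KIF20B, another cytokinesis motor, had 145, 155, 141 and 150 CPM with c-di-GMP, against 115, 132 and 130 CPM with vehicle and 39.3 CPM in vehicle 3. KIF14, which acts with citron kinase at the midbody, had 105, 108, 101 and 105 CPM with c-di-GMP, against 90.5, 96.3 and 93.0 CPM with vehicle and 63.1 CPM in vehicle 3. For both, every c-di-GMP library was above every vehicle library. KIF20B rose by 0.23 (edgeR adjusted p = 0.00102) and KIF14 by 0.17 (edgeR adjusted p = 0.00541). After the GC correction they had 0.08 and 0.04 and did not pass, and their GC contents, 34.2% and 38.3%, were low among the motors.

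Of the transport motors, those of the kinesin-1 and kinesin-3 families came in both directions. KIF5B had 455, 457, 442 and 451 CPM with c-di-GMP, against 393, 433 and 423 CPM with vehicle and 318 CPM in vehicle 3. Every c-di-GMP library was above every vehicle library. It rose by 0.12 (edgeR adjusted p = 0.0373), a call lost on leaving out any one of the 4 c-di-GMP libraries, vehicle 1 or vehicle 4 (edgeR adjusted p = 0.0533 to 0.121), and had -0.01 with the GC correction. KIF1B, which moves vesicle precursors and mitochondria, had 104, 109, 98.8 and 105 CPM with c-di-GMP, against 105, 99.0 and 111 CPM with vehicle and 55.7 CPM in vehicle 3. Leaving vehicle 3 aside, the groups overlapped, with a log2 fold change of -0.01 ± 0.05 that did not pass (edgeR adjusted p = 0.853).

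KIF1C, a kinesin-3 that carries vesicles and integrins, had 282, 291, 291 and 284 CPM with c-di-GMP, against 378, 317 and 333 CPM with vehicle and 162 CPM in vehicle 3. The c-di-GMP libraries lay below vehicle 1, 2 and 4. KIF1C fell by 0.26 ± 0.05 (edgeR adjusted p = 0.000274) and by 0.16 ± 0.04 with the GC correction (edgeR adjusted p = 0.00242). KIF13B, of the same family, had 39.5, 41.1, 39.0 and 38.8 CPM with c-di-GMP, against 51.1, 44.2 and 46.7 CPM with vehicle and 11.4 CPM in vehicle 3. It stood in the same order as KIF1C, below the 3 vehicle libraries and above vehicle 3. It fell by 0.26 (edgeR adjusted p = 0.00188) and by 0.17 with the GC correction (edgeR adjusted p = 0.0266), the GC-corrected call being lost without c-di-GMP 1, 3 or 4 or without vehicle 1 or 4 (edgeR adjusted p = 0.0527 to 0.15). Including vehicle 3, it had 0.04, which did not pass.

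Of the kinesin-2 genes, which serve ciliary transport, KIF3C passed and KIF3A, KIF3B and KIF17 did not; differences between them were not tested. KIF3C, an alternative partner of KIF3A, had 60.6, 57.8, 57.6 and 57.0 CPM with c-di-GMP, against 83.1, 71.5 and 74.6 CPM with vehicle and 23.2 CPM in vehicle 3. Every c-di-GMP library lay below vehicle 1, 2 and 4. KIF3C fell by 0.39 ± 0.05 (SE), or to 0.762-fold (edgeR adjusted p = 7.95e-06), and by 0.28 ± 0.04 with the GC correction (edgeR adjusted p = 4.39e-05), and both calls held when any 1 of the 7 libraries was left out, as they also did for KIF1C, KIF18A and KIF23. KIF3A and KIF3B, the usual pair of the heterotrimeric motor, did not pass, with log2 fold changes of 0.10 ± 0.07 and -0.01 ± 0.05. Their GC-corrected values were -0.03 and -0.04. The endosome motors KIF13A and KIF16B, of the kinesin-3 family, did not pass either, at -0.01 ± 0.05 and -0.16 ± 0.09, and at -0.06 and -0.22 with the correction (edgeR adjusted p = 0.347 and 0.0911).

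Both kinesin-14 transport genes, whose products walk toward minus ends, fell before the correction. KIFC2 had 32.0, 27.3, 30.3 and 28.0 CPM with c-di-GMP, against 55.7, 41.5 and 42.4 CPM with vehicle and 3.40 CPM in vehicle 3. Vehicle 1 was the highest library, and the c-di-GMP libraries were below all vehicle libraries but vehicle 3. KIFC2 fell by 0.66 ± 0.08, or to 0.631-fold (edgeR adjusted p = 2.16e-06), and by 0.23 ± 0.06 with the GC correction (edgeR adjusted p = 0.00818), which became -0.17 without vehicle 1 (edgeR adjusted p = 0.0858). It has the highest GC content of the motors, 68.1%, and 17.8% of its exon bases are shared with FOXH1 on the opposite strand, whose reads cannot be told apart since the labels do not state a strand. KIFC3, which acts at the Golgi and at cell junctions, had 227, 214, 222 and 229 CPM with c-di-GMP, against 308, 268 and 277 CPM with vehicle and 530 CPM in vehicle 3. All 4 vehicle libraries were above all c-di-GMP libraries. It fell by 0.35 ± 0.05 (edgeR adjusted p = 4.77e-06), but with the GC correction the log2 fold change was -0.03 and did not pass (edgeR adjusted p = 0.658).

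Of the 9 other motors, KIF2A, a kinesin-13 of spindle poles and neurites, had 75.9, 79.7, 76.6 and 83.9 CPM with c-di-GMP, against 70.8, 73.9 and 68.8 CPM with vehicle and 55.6 CPM in vehicle 3. Its groups stayed apart with all 8 libraries. It rose by 0.15 (edgeR adjusted p = 0.0236), a call lost without c-di-GMP 4 (edgeR adjusted p = 0.128) or vehicle 4 (edgeR adjusted p = 0.118), and 0.05 was left with the GC correction. KIF7, the ciliary kinesin of Hedgehog signalling, had 12.3, 11.9, 11.6 and 11.2 CPM with c-di-GMP, against 15.3, 12.6 and 16.6 CPM with vehicle and 5.99 CPM in vehicle 3. The lowest of vehicle 1, 2 and 4 was just above the highest c-di-GMP library. It fell by 0.34 (edgeR adjusted p = 0.0089), a call lost without vehicle 4 (edgeR adjusted p = 0.0761), and had -0.02 with the GC correction.

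KIF9 had 4.45, 4.07, 5.87 and 5.06 CPM with c-di-GMP, against 3.63, 5.03 and 4.98 CPM with vehicle and 22.0 CPM in vehicle 3. The groups overlapped without vehicle 3, and the log2 fold change was 0.10 ± 0.15, which did not pass. With all 8 libraries it was -0.91 ± 0.60, also not past the threshold (edgeR adjusted p = 0.623). It shares 17.9% of its exon bases with KIF9-AS1 and KLHL18 on the opposite strand, the largest share among the motors, of which 19 share some exon bases with another gene. The remaining motors of this class did not pass in any of the 3 comparisons. KIF24, which restrains ciliogenesis, KIF21A, which slows microtubule growth, and KIF27, a relative of KIF7, had log2 fold changes of -0.07, 0.0007 and 0.10, and of -0.06, -0.10 and -0.01 with the GC correction. KIF21B, KIF25 and KIF26B had at most 92 counts in a library and standard errors of 0.18 to 0.34, and KIF21B and KIF26B passed when vehicle 4 or vehicle 2 was left out (edgeR adjusted p = 0.0167 and 0.0413).

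Vehicle replicate 3 is described on its own, as 1 library with no test. Its CPM over the mean of vehicle 1, 2 and 4, on the log2 scale, had a median of -0.50 over the mitotic motors (-2.61 to 1.505), -0.97 over the transport motors (-3.69 to 0.98) and -0.71 over the others (-1.89 to 2.36), beside -0.05 over all genes. KIFC2 was the farthest below, at 0.0775 of the other vehicle libraries, followed by KIF20A at 0.164. KIF9 was the farthest above, at 5.13 times, followed by KIF2C at 2.84 times (501 CPM, against 184 to 192 CPM in vehicle 1, 2 and 4). Within the mitotic class it thus held 4 motors above and 8 below the other vehicle libraries. Across the 33 motors this ratio and gene length had a Spearman correlation of -0.22, and across all genes one of -0.32. The median deposited gene length was 4662 bases for the mitotic motors, 7291 for the transport motors and 4562 for all genes.

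**Figure D5:**
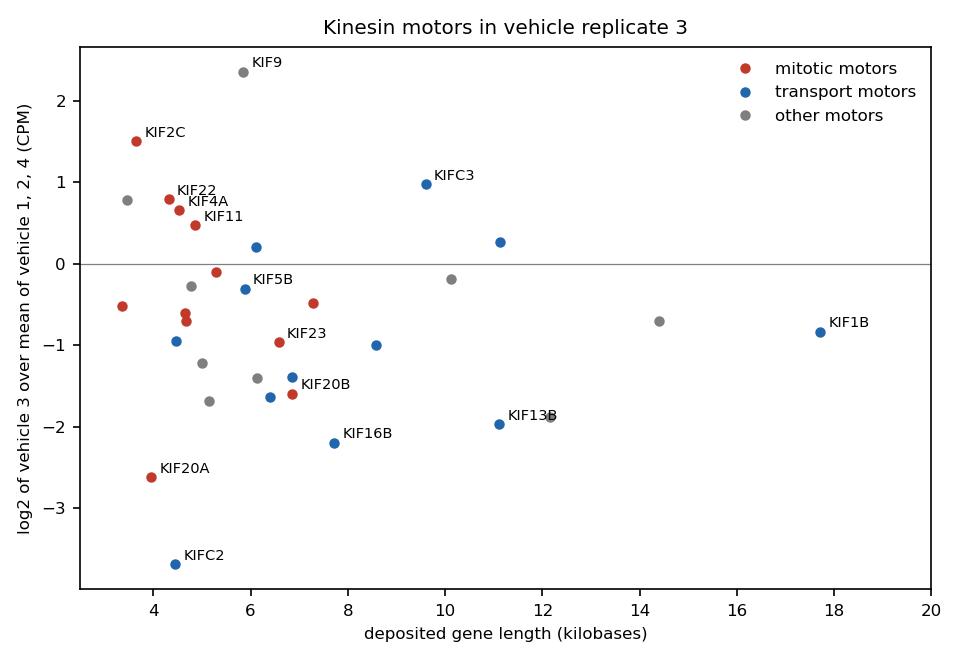
Vehicle replicate 3 over the mean of vehicle 1, 2 and 4 (log2 of CPM, vertical axis) for each motor against its deposited gene length in kilobases, coloured by class. Motors of similar length lie far apart, from KIFC2 at -3.69 to KIF2C at 1.505.

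The genes that work with the motors were read from 3 lists of partners. Beside the counts below stand the shares over all genes, 13.5% higher and 16.2% lower in the 7 libraries, and 8.58% higher and 6.62% lower with the GC correction. Of 17 spindle and cytokinesis partners, 8 rose and 2 fell in the 7 libraries, and 7 rose and 0 fell with the GC correction. AURKA, a spindle pole kinase, had 234, 235, 249 and 243 CPM with c-di-GMP, against 197, 217 and 199 CPM with vehicle and 442 CPM in vehicle 3. Vehicle 3 was above every c-di-GMP library and the other vehicle libraries below. Without vehicle 3 AURKA rose by 0.23 (0.19 with the GC correction, edgeR adjusted p = 0.000594), but with all 8 libraries its log2 fold change was -0.17, which did not pass. CENPE, the kinetochore kinesin that the naming rule leaves out, rose by 0.26 (0.12 with the correction, edgeR adjusted p = 0.0417). ECT2, the exchange factor that centralspindlin recruits, rose by 0.21, with 0.08 after the correction (edgeR adjusted p = 0.0775).

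Of 16 adaptors and cargo partners of the transport motors 15 were tested, of which 2 rose and 6 fell, and 1 rose and 2 fell with the GC correction. Set against the shares over all genes, the rises of this list were near the background in both comparisons. MAPK8IP3, a scaffold that links kinesin-1 to cargo, had 101, 101, 103 and 96.8 CPM with c-di-GMP, against 155, 125 and 134 CPM with vehicle and 44.97 CPM in vehicle 3. The c-di-GMP libraries were below vehicle 1, 2 and 4 only. It fell by 0.46 and by 0.12 with the correction (edgeR adjusted p = 0.0182). The light chain gene KLC2 fell by 0.22 and the mitochondrial adaptor gene RHOT2 by 0.30, but with the correction they had 0.03 and 0.06 and did not pass. KIF1BP, the kinesin-binding protein, had 101, 96.6, 108 and 98.8 CPM with c-di-GMP, against 89.8, 88.2 and 91.3 CPM with vehicle and 160 CPM in vehicle 3. It rose by 0.17 (edgeR adjusted p = 0.00801) and by 0.22 with the correction (edgeR adjusted p = 0.000402), but with all 8 libraries it had -0.12, which did not pass.

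Dynein and dynactin, the motor complex that walks opposite to most kinesins, had 24 of 25 listed genes tested, of which 11 rose and 3 fell, and 3 rose and 3 fell with the GC correction. By the same shares, the falls without the correction were not above the background. DYNLRB1, a dynein light chain, had 132, 140, 149 and 144 CPM with c-di-GMP, against 107, 119 and 114 CPM with vehicle and 292 CPM in vehicle 3. Again vehicle 3 lay above the c-di-GMP libraries and the other vehicle libraries below. Without vehicle 3 DYNLRB1 rose by 0.32 both without and with the correction (edgeR adjusted p = 6.5e-06 with it), but with all 8 libraries its log2 fold change was -0.20, which did not pass. The dynactin subunit DCTN6 rose by 0.42, and by 0.30 with the correction (edgeR adjusted p = 0.0117), but it had 15.3 to 16.8 CPM with c-di-GMP, against 42.3 CPM in vehicle 3, and with all 8 libraries its log2 fold change was -0.33, which did not pass. PAFAH1B1, the dynein regulator LIS1, rose by 0.19, with 0.09 after the correction (edgeR adjusted p = 0.0694). With all 8 libraries 0 genes of any of the 3 lists passed by edgeR.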

How the data were processed

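Total RNA was sequenced from 4 c-di-GMP and 4 vehicle libraries of MDA-MB-231 cells. The submitters' processing notes name HISAT2 2.0.5, featureCounts 1.5.0-p3, fastp, CASAVA 1.8 and DESeq2 1.20.0, without how each was used. They name a mouse genome build (mm10), but the deposited tables hold human genes, whose coordinates match GENCODE v29 (GRCh38) for all 16383. The deposited values are read counts per gene and, in a second table, the authors' FPKM.

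From the counts, genes were kept by filterByExpr (minimum count 10, total 15), scaled by TMM and tested over the whole table with edgeR 4.0.16 in R 4.3.3 (quasi-likelihood F test), with Benjamini-Hochberg adjustment and a threshold of 0.05. The standard error is the log2 fold change over the root of F. The GC correction is an offset from a lowess trend (span 0.3) of each library on GC content (longest transcript of a gene). Alternatives used limma 3.58.1, DESeq2 1.42.0, other scalings, no filter, log2(FPKM + 1) and leaving out each library. Only the main edgeR fits were first run on simulated counts with known changes, and the alternatives were not. The simulated counts held no GC trend, so the GC correction was not tested by them.

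The members, classes and lists were chosen with earlier results of these data known. The same holds for the fit without vehicle replicate 3 and for the GC correction. Values in every library are given for KIF11, KIF20A, KIF23, KIF5B and KIF1B, for motors that passed in any comparison and for the 2 of smallest p per class with all 8 libraries, and of each partner list the 3 genes of smallest p in the 7 libraries are named. Further motors named were chosen after their values were seen. KIF4B, KIF2B, KIF1A, KIF5A and KIF5C were not analysed here. The floor covers counting error only, while standard errors and p-values include variation between libraries.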

Additional observations from a re-analysis of the deposited data

Results flagged for a closer look

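In the 19 motors whose value in every library was examined, a single library lay far from the other 3 of its group for 5 motors, and in each of them it was vehicle replicate 3. In each, the gap to the nearest of the others was taken over the range of the group. This ratio was above the 95% critical value of Dixon's test for 4 samples. Chance gives that in about 1 of 20 unselected groups, a rate that does not apply here. The motors were chosen mostly by their calls, and vehicle replicate 3 was already known to stand apart. Its KIF20A level was 22.4 CPM, against 134 to 142 CPM in the other vehicle libraries (all on the scale of 8 libraries), and its KIF23 level was 62.6 CPM, against 118 to 128 CPM. It held more KIF4A, 185 CPM against 116 to 119 CPM, more KIF9, 22.0 CPM against 3.42 to 4.75 CPM, and more KIFC3, 530 CPM against 253 to 290 CPM. In 0 of the 19 motors did a c-di-GMP library stand apart in this way. The share of all genes flagged by this rule was not computed, so whether the counts are particular to kinesins is not known. KIF2C, at 2.84 times the other vehicle libraries in vehicle replicate 3, was not among the 19. The part of RNA quality, library preparation or culture in these values was not tested.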

How the results depend on the processing

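With all 8 libraries, 0 motors were called by edgeR under the other scalings, without a filter, by limma-voom or on log2(FPKM + 1), and 1, KIF15, by DESeq2. Leaving out 1 library gave 0 to 16 called motors, the 16 without vehicle replicate 3. The median of the mitotic motors was 0.33 with library totals, and that of the transport motors was 0.13 with the replicate block. Directions of motors not past the threshold turned in places. With limma-voom the log2 fold changes were 0.0062 for KIF18B, 0.013 for KIF1C, 0.0033 for KIF3C and 0.21 for KIFC2. On log2(FPKM + 1) they were 0.028 for KIF18B, 0.018 for KIF1C, 0.020 for KIF3C, 0.014 for KIF4A and 0.091 for KIFC2, and with library totals 0.083 for KIF18B, 0.016 for KIF1C and 0.16 for KIF4A. On leaving out each library, values ranged from -0.26 to 0.20 for KIF13B, -0.15 to 0.078 for KIF18B, -0.015 to 0.25 for KIF1B, -0.26 to 0.068 for KIF1C, -0.39 to 0.036 for KIF3C, -0.10 to 0.15 for KIF4A, -0.34 to 0.039 for KIF7, -1.17 to 0.099 for KIF9 and -0.66 to 0.0073 for KIFC2.

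In the 7 libraries, 14 to 18 motors were called on leaving out 1 library, and the mitotic median was 0.15 to 0.18. KIF1B ranged from -0.056 to 0.023 and KIF9 from -0.039 to 0.18, and KIF1B had 0.0034 on log2(FPKM + 1), where KIF18B and KIF7 did not pass and KIF20A did. With the GC correction 5 to 9 motors were called, KIF5B ranged from -0.015 to 0.0073, KIF7 from -0.082 to 0.092 and KIF9 from -0.0074 to 0.23. With the length trend as well, KIF1B had 0.019, KIF5B 0.0044 and KIFC3 0.019. The level of vehicle replicate 3 over the other vehicle libraries had medians of -1.17 (mitotic) and -1.65 (transport) with library totals, where the median of all genes was -0.70 in place of -0.05 and 2 mitotic motors were above and 10 below 0, and of -0.53 and -1.03 as deposited FPKM.

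Same-numbered libraries had correlations of their deviations of 0.015, -0.009 and 0.005 in the 7 libraries. With all 8 these were 0, 0.184, 0.123 and -0.058, against -0.194 to 0.18 between libraries of unlike number. Correlations over all genes cannot exclude shared cultures or batches, so whether the numbers pair the libraries was left undecided. With the replicate number as a block, 8 motors rose and 8 fell in the 7 libraries (KIF5B lost, KIF21B gained), 2 rose and 3 fell with the GC correction (KIF4A and KIF13B lost) and 0 passed with all 8, where the block gave 0.0059 for KIF18B, 0.0040 for KIF3C and 0.072 for KIFC2. In the 7 libraries it gave 0.011 for KIF1B and -0.0068 for KIF9. The cause of these shifts was not tested. Where 1 vehicle library of 3 was left out the test rests on 2, and motors under 100 counts per library have wide errors.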
